A study of Mus musculus with 20 samples.

Results

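The genes described here are 10 genes of macrophage identity and of the CSF1 axis: the receptor gene Csf1r, its ligand genes Csf1 and Il34, the transcription factor gene Spi1, and the macrophage genes Adgre1, Mertk, Itgam, Mpeg1, Cd84 and Ms4a7. They were chosen by symbol in the array's annotation. All 10 were measured, each by 1 probe set, among 19505 genes on the array. Arrays measured RNA of whole epididymal fat pads from 20 male C57BL/6 mice, each a separate animal, and both alleles of the TNF-α gene were floxed in every mouse (TNF-αFlox/FLox). The 10 cre mice also carried 1 copy of LyzM-Cre (LyzMcre+/-), which acts in macrophages, neutrophils and other myeloid cells. The 10 wt mice were littermates without Cre (LyzMcre-/-), so that wt here means floxed and not deleted. Chow was replaced in both groups at 10 weeks of age by a high-fat diet, in which fat gave 40% of calories, and after 18 weeks on it the mice were 28 weeks old. The titles name 2 batches of 5 cre and 5 wt mice each, without saying what a batch was. The study compared cre with wt fat, that is, fat with and without deletion of Tnf in myeloid cells.

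CSF1R is a receptor tyrosine kinase that macrophages need for survival and growth. It binds 2 ligands, CSF1 and IL-34, which are made mainly by other cells. PU.1, the product of Spi1, is the transcription factor that sets up the myeloid lineage and drives Csf1r. In obesity, macrophages gather in epididymal fat. Values here are log2 signals of whole tissue, so that fewer macrophages and less RNA per macrophage cannot be told apart. A difference of 1 on this scale is a doubling of signal, and signals of different probe sets are not set against each other.

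The arrays were alike in level, with medians between 6.49 and 6.58 and correlations between arrays of 0.934 to 0.989. Tnf averaged 4.67 ± 0.43 in cre and 6.66 ± 0.69 in wt fat (SD, n = 10 each, limma adjusted p = 0.000822), and no cre mouse overlapped with wt. Lyz2, the locus that holds the Cre insert, averaged 15.44 ± 0.73 in cre and 16.98 ± 0.63 in wt (SD, n = 10 each, limma adjusted p = 0.176). The mean signal of 10 measured adipocyte markers lay between 15.93 and 17.01 in cre and between 14.41 and 16.89 in wt fat, and that of 16 measured macrophage markers, 6 of them among the 10 genes, between 10.52 and 13.24 in cre and between 12.07 and 13.97 in wt. Some pads had high signals of genes of another tissue, from lists drawn up after the values were seen. In cre replicates 2, 3 and 9 and in wt replicates 4 and 6 the mean of such a list exceeded that of all other mice of the genotype by over 1 log2 unit. These lists were bladder epithelium and brown adipocytes in cre replicate 2, and seminal vesicle in cre replicate 3 and wt replicate 6. Prostate was high in wt replicate 6, liver and exocrine pancreas in wt replicate 4, and erythroid precursors in cre replicate 9. The rule passes over mice that share a high list. The liver list was at 14.02 in wt replicate 4, and at 11.89 and 11.87 in cre replicates 4 and 10, which were kept. Its median was 9.80 in cre and 7.70 in wt mice. All 11 measured liver genes were higher in cre, by a median of 1.26, and 0 of 11 passed adjustment. Below, the mice with a high list of another tissue are the 5 that met the rule. Leaving out these 5 was an alternative added after the data were seen. Without them 0 of the 10 genes passed adjustment and 9 of 10 differences were again negative. Each of the 9 was further from 0 than with all 20 mice. Mice left out were also extreme in some of these genes. Among wt mice replicate 6 was lowest in Csf1r and Csf1, and replicate 4 in Itgam, Mpeg1, Ms4a7 and Spi1. Among cre mice replicate 3 was highest in Cd84, Ms4a7 and Spi1. Cre replicate 9 was the lowest cre mouse in Adgre1, Csf1r, Csf1, Mertk, Mpeg1, Cd84, Ms4a7 and Spi1.

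No difference between genotypes was detected for any of the 10 genes in the fit over both batches. By limma with batch as a term, 0 of 10 passed an adjusted p of 0.05, and 0 of 10 had an unadjusted p under 0.05. Over all probe sets 0.0045% passed the first and 6.29% the second. The study's own selection asked for an unadjusted p under 0.05 and a 1.5-fold difference or more. It took 1.04% of all probe sets and 0 of the 10 genes. Adjusted p-values of the 10 ranged from 0.821 to 0.970. The log2 difference, cre minus wt, was negative in 9 of the 10 and positive in Il34, against 49.3% negative over all probe sets. These are not 9 independent counts, since most of the genes varied together from mouse to mouse. The sign is that of the means. In Adgre1, Csf1r, Mpeg1, Cd84 and Ms4a7, all with a negative difference of means, the cre median was above the wt median. The median of the 10 differences was −0.30, against 0.0034 over all probe sets. All 10 adipocyte markers had a positive difference, with a median of 0.37 and 0 of 10 under an unadjusted p of 0.05. The mean of this list had a median of 16.55 in cre and 16.52 in wt mice. Its lowest values were 14.41 in wt replicate 6 and 15.09 in wt replicate 5. Of the 16 macrophage markers 15 were negative, 3 of them with an unadjusted p under 0.05. These 3 include Lyz2, at the Cre insert, which had the most negative difference of the list, −1.55. The mean of the 16 macrophage markers had a median of 12.78 in cre and 12.64 in wt mice. The part of such differences in the 10 genes was not tested.

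**Figure D1:**
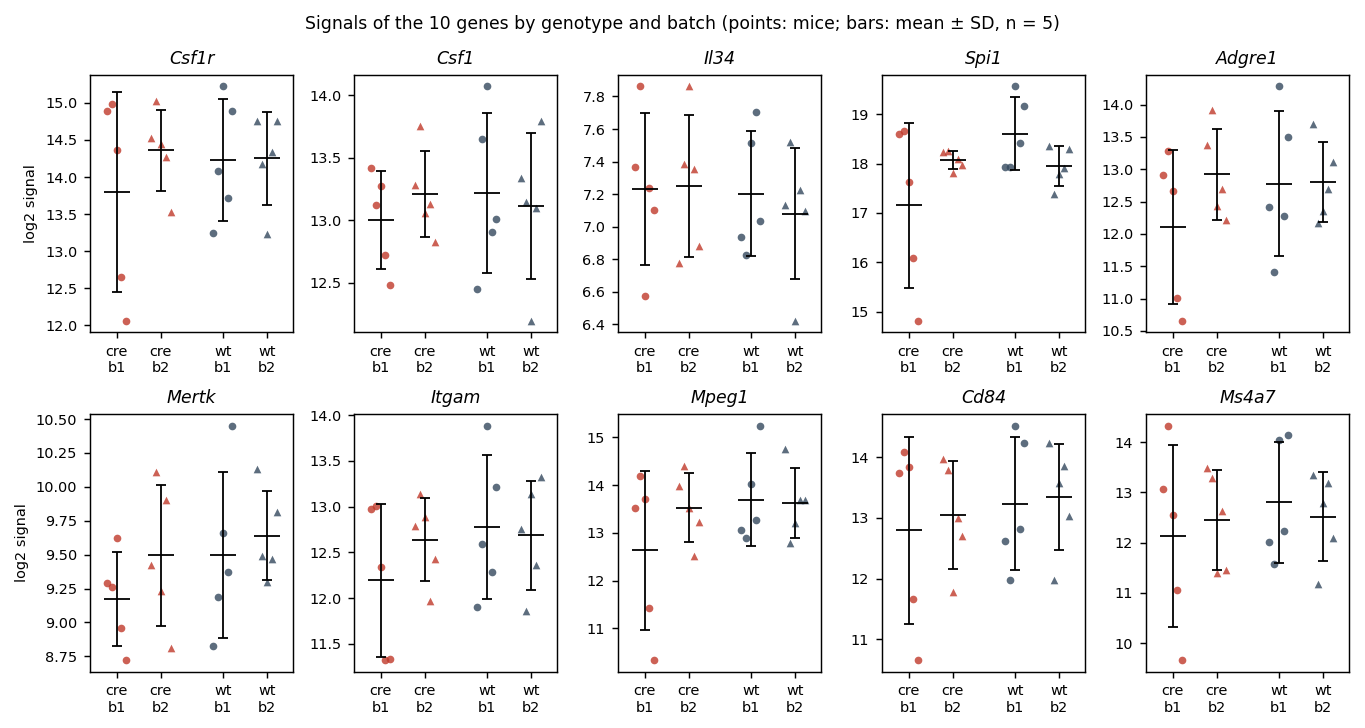
Log2 signal (vertical axes, each with its own range) of the 10 genes in each mouse, split by genotype and batch (b1 and b2). Points are mice and bars are the mean ± SD of 5 mice. Among the batch 1 cre mice, replicates 9 and 7 lie lowest in Csf1r, Csf1, Adgre1, Mertk, Itgam, Mpeg1, Cd84, Ms4a7 and Spi1, and Il34 shows no such pair.

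Csf1r lies on chromosome 18 (61105572 to 61131139, GRCm38). In batch 1 its log2 signal was 14.90, 14.99, 14.37, 12.65 and 12.06 in the cre mice, against 13.24, 14.08, 15.22, 13.72 and 14.90 in the wt mice. Replicates 7 and 9 gave both low cre values, and the other 3 cre mice lay within the wt range. In batch 2 it was 14.52, 15.03, 14.44, 14.27 and 13.53 in cre, against 14.75, 14.18, 13.23, 14.33 and 14.75 in wt, and cre replicate 4 lay above every wt mouse of that batch while the others overlapped. The Csf1r median was 14.41 in cre and 14.25 in wt mice. Csf1r averaged 14.08 ± 1.01 in cre and 14.24 ± 0.69 in wt fat (SD, n = 10 each). The difference was −0.17 (SE 0.35, 95% interval −0.90 to 0.57, limma adjusted p = 0.949). This interval runs from 0.536-fold to 1.48-fold, cre over wt, so that a moderate difference either way is within the error. Without cre replicate 9 the difference was 0.05, and it was 0.11 in batch 2, so its direction was not fixed.

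The SD between mice within genotype and batch was 0.51 for Csf1 and 0.42 for Il34, against 0.89 for Csf1r. Csf1 (chromosome 3, 107741048 to 107760469, GRCm38) had a lowest, median and highest log2 signal of 12.48, 13.12 and 13.76 in cre and of 12.20, 13.12 and 14.07 in wt mice. The medians were alike, and every cre mouse lay within the wt range. It averaged 13.11 ± 0.37 in cre and 13.17 ± 0.58 in wt (SD, n = 10 each), a difference of −0.06 (SE 0.21, 95% interval −0.50 to 0.38, limma adjusted p = 0.970). Csf1 differed by −0.21 in batch 1 and by 0.10 in batch 2. Il34 (chromosome 8, 110741829 to 110805949, GRCm38) had 6.57, 7.30 and 7.86 in cre and 6.42, 7.11 and 7.70 in wt mice. The groups overlapped, with cre replicates 3 and 6 above every wt mouse and wt replicate 6 below every cre mouse. The difference was 0.10 (SE 0.18, 95% interval −0.27 to 0.47, limma adjusted p = 0.934), with 0.03 in batch 1 and 0.17 in batch 2. The median Il34 signal stood at percentile 57.4 of the array in cre and 55.8 in wt, near the middle of all probe sets. For Csf1 these were percentiles 95.2 and 95.1, and for Csf1r 97.5 and 97.3.

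Spi1 had the most negative difference of the 10 and the largest gap between batches. The gene lies on chromosome 2 (91082374 to 91115759, GRCm38). In batch 1 its log2 signal was 18.60, 18.67, 17.62, 16.08 and 14.82 in cre mice, against 17.93, 17.94, 19.57, 18.42 and 19.16 in wt mice. Cre replicates 5, 7 and 9 lay below every wt mouse of that batch, and the other 2 lay within the wt range. In batch 2 it averaged 18.08 ± 0.18 in cre and 17.95 ± 0.40 in wt mice (SD, n = 5 each). Over both batches it averaged 17.62 ± 1.22 in cre and 18.28 ± 0.66 in wt (SD, n = 10 each), a difference of −0.66 (SE 0.40, 95% interval −1.50 to 0.18, limma adjusted p = 0.821). All regroupings of the mice within batches gave a two-sided permutation p of 0.183. Within batches the Spi1 difference was −1.45 in batch 1 (exact permutation p = 0.119, n = 5 each, smallest possible 0.00794) and 0.13 in batch 2 (exact permutation p = 0.556). Limma in batch 1 alone gave an unadjusted p of 0.0421 and an adjusted p of 0.680. In that batch 7.22% of all probe sets had an unadjusted p under 0.05 and 4.26% entered the study's selection, as Spi1 did there. Limma's interaction of genotype and batch had an unadjusted p of 0.0487 and an adjusted p of 0.672. Over all probe sets 7.41% had an unadjusted interaction p under 0.05 and 0% an adjusted one, and Spi1 was the 1 gene of the 10 under the unadjusted limit. Without cre replicate 9, a mouse with the erythroid list at 11.2 against at most 7.66 in other cre mice, the Spi1 difference was −0.34, and without all 5 mice with a high list of another tissue it was −0.68 (limma unadjusted p = 0.0584, adjusted p = 0.807). The Spi1 signal stood near the top of the array, at percentile 99.8 in both genotypes, and whether signal still followed RNA in proportion there, or whether other transcripts bind this probe set, was not tested.

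The 6 remaining genes mark macrophages. Adgre1 encodes the adhesion receptor used as the standard surface marker of mouse macrophages (chromosome 17, 57358581 to 57483529, GRCm38). Its lowest, median and highest log2 signals were 10.66, 12.68 and 13.91 in cre and 11.41, 12.55 and 14.29 in wt mice. The cre median was the higher one, while cre replicates 9 and 7 lay below every wt mouse. The difference of means was −0.28 (SE 0.38, 95% interval −1.06 to 0.51, limma adjusted p = 0.912). Mertk encodes a receptor kinase through which macrophages take up dying cells (chromosome 2, 128698915 to 128803162, GRCm38). It had 8.72, 9.28 and 10.11 in cre and 8.83, 9.48 and 10.45 in wt mice, and the groups overlapped. Mertk differed by −0.24 (SE 0.20, limma adjusted p = 0.853), with −0.33 in batch 1 and −0.14 in batch 2.

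Itgam encodes CD11b, the integrin chain of macrophages, monocytes, neutrophils and some other leukocytes (chromosome 7, 128062640 to 128118491, GRCm38). It had 11.32, 12.61 and 13.13 in cre and 11.85, 12.67 and 13.89 in wt mice, a difference of −0.32 (SE 0.28, limma adjusted p = 0.863). Its cre and wt medians differed little. Batch 1 by itself gave −0.58 for Itgam, and batch 2 gave −0.048. The mean of the 8 measured neutrophil markers lay between 5.85 and 6.35 in cre and between 5.86 and 6.85 in wt mice, with 0 of 8 under an unadjusted p of 0.05. These means lay near or below the array medians in both groups. Their part in the Itgam signal was not tested. Mpeg1 encodes perforin-2, a pore-forming protein of phagocytes that acts on engulfed bacteria (chromosome 19, 12460770 to 12465285, GRCm38). It had 10.34, 13.52 and 14.40 in cre and 12.78, 13.47 and 15.25 in wt mice, a difference of −0.58 (SE 0.44, 95% interval −1.48 to 0.33, limma adjusted p = 0.848). The medians nearly met, and 3 cre mice lay below the lowest wt mouse. Batch 1 alone gave −1.06 and batch 2 alone −0.10 for Mpeg1.

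Cd84, a SLAM family receptor of leukocytes, had 10.66, 13.37 and 14.09 in cre and 11.97, 13.30 and 14.52 in wt mice, a difference of −0.36 (SE 0.44, limma adjusted p = 0.899). Ms4a7, a membrane protein of the MS4A family found on macrophages, had 9.66, 12.59 and 14.33 in cre and 11.18, 12.51 and 14.15 in wt mice, a difference of −0.36 (SE 0.50, limma adjusted p = 0.912). In both genes the cre median was slightly above the wt median although the mean difference was negative. Spread was uneven among the 10 genes: the SD between mice within genotype and batch was 1.27 for Ms4a7, 1.13 for Cd84 and 1.09 for Mpeg1, and 0.47 for Mertk, with both ligands near that low end. From the lowest to the highest of 20 mice Mpeg1 spanned 30.0-fold and Il34 2.71-fold.

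**Figure D2:**
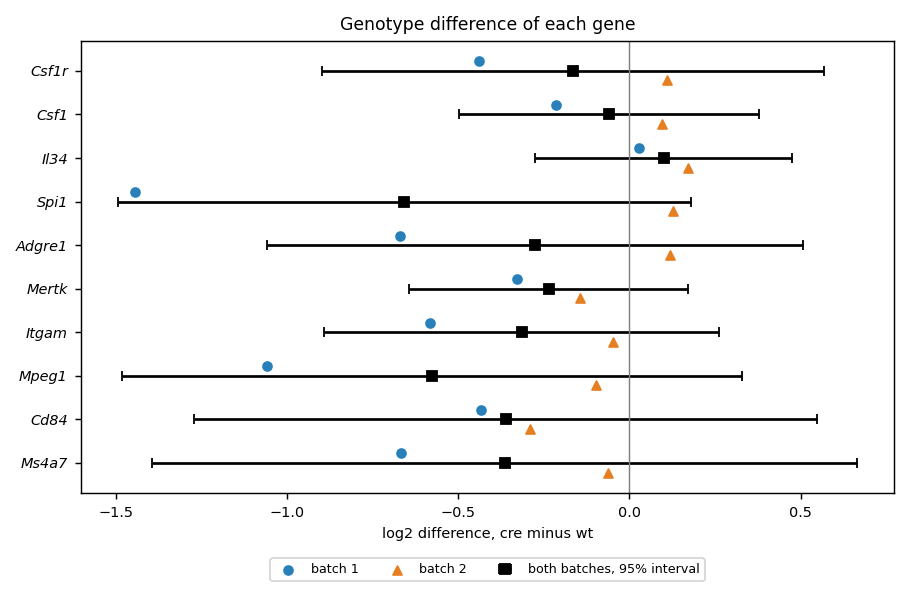
Log2 difference, cre minus wt, of the 10 genes (horizontal axis), with the limma estimate over both batches and its 95% interval (squares and bars) and the difference of means within batch 1 (circles) and batch 2 (triangles). All 10 intervals include 0. Batch 1 is left of 0 for 9 genes, and batch 2 is left of 0 for 5.

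The low end of most of these genes was held by the same mice. Cre replicate 9 had the lowest signal of all 20 mice in 7 of the 10 genes and was among the lowest 3 in 9. Cre replicate 7 was among the lowest 2 in 7 genes. Wt replicate 5 was the highest of all 20 in 6 genes. In these 2 cre mice the macrophage list mean was 10.52 and 11.09, below every other mouse. In the same mice, replicates 9 and 7, the mean of the fibroblast and progenitor list was 12.20 and 12.56, the lowest of the cre mice, and the adipocyte list mean was 16.75 and 17.01, within the range of the other cre mice or at its top. In batch 1, which holds both, 9 of the 10 genes had a negative difference, against 50.2% of all probe sets there, and in batch 2 it was 5 of 10, against 47.1%. Within a batch the exact permutation p of each gene was at least 0.119 in batch 1 and 0.548 in batch 2. With the Adgre1 signal as a covariate, the difference was −0.40 for Spi1, −0.30 for Mpeg1, 0.06 for Csf1r, 0.03 for Csf1 and 0.13 for Il34 (limma adjusted p from 0.793 to 0.982 over the 9 genes).

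Leaving out single mice moved the differences both ways. Adgre1 ran from −0.42 without cre replicate 4 to −0.076 without wt replicate 5, and Csf1r from −0.30 without wt replicate 6 to 0.05 without cre replicate 9. Mertk ran from −0.31 without cre replicate 4 to −0.12 without wt replicate 9, and Itgam from −0.43 without wt replicate 4 to −0.17 without wt replicate 5. Cd84 ran from −0.53 without wt replicate 4 to −0.11 without cre replicate 9. For Mpeg1, Ms4a7 and Spi1 the most negative values were −0.73, −0.61 and −0.79, each without cre replicate 3, and the least negative −0.28, −0.056 and −0.34, each without cre replicate 9. Csf1 ran from −0.18 without wt replicate 6 to 0.050 without wt replicate 5, and Il34 from 0.018 without wt replicate 6 to 0.18 without cre replicate 5. Cre replicate 9 is also 1 of the 5 mice with a high list of another tissue. Without all 5 the differences were −0.47 for Adgre1, −0.28 for Csf1r, −0.15 for Csf1, 0.031 for Il34, −0.25 for Mertk, −0.40 for Itgam, −0.72 for Mpeg1, −0.51 for Cd84, −0.62 for Ms4a7 and −0.68 for Spi1.

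No related gene of the same pathways passed adjustment either. Of 61 measured genes in 6 lists, which held 69 names, 0 passed limma's adjustment over all probe sets, and 7 had an unadjusted p under 0.05, 6 of them lower in cre, where 6.29% of all probe sets reached that. The median difference over the 61 was −0.17, and 40 of the 61 were negative, against 49.3% of all probe sets. Among 9 measured relatives of the CSF1 receptor and their ligands, 4 were negative and 5 positive. Sdc1, a cell-surface proteoglycan that IL-34 can bind, averaged 11.06 ± 0.71 in cre and 11.67 ± 0.51 in wt (SD, n = 10 each, limma adjusted p = 0.772). Flt3, a receptor kinase of dendritic cell precursors, averaged 4.86 ± 0.51 in cre and 4.27 ± 0.39 in wt (SD, n = 10 each, limma adjusted p = 0.770), a dim signal in both.

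Of 6 other colony-stimulating factors and receptors, 4 were negative, where 49.3% of all probe sets were. Csf2ra, the receptor chain that binds GM-CSF, averaged 10.87 ± 0.95 in cre and 11.96 ± 0.79 in wt (SD, n = 10 each), a difference of −1.09 (SE 0.36, limma adjusted p = 0.770), with −1.47 in batch 1 and −0.71 in batch 2. Its groups overlapped, with 11.93 in the highest cre mouse against a median of 11.79 and a lowest value of 11.21 in wt mice. Of 14 signalling partners of CSF1R, 10 were negative. The Src family kinase gene Fgr differed by −0.55 (SE 0.18, limma adjusted p = 0.770), and the adaptor gene Tyrobp by −0.80 (SE 0.38, limma adjusted p = 0.789). In both genes the groups overlapped. Among 13 macrophage transcription factors 9 were negative and 0 had an unadjusted p under 0.05. Of 4 TAM receptors and bridging ligands 1 was negative: Axl, a receptor kinase of the same family as Mertk, with −0.65 (SE 0.31, limma adjusted p = 0.789). Of 15 relatives and partners of the macrophage genes 12 were negative, among them Adgre4, of the same receptor family as Adgre1, with −0.63 (SE 0.23, limma adjusted p = 0.770). None of these 7 genes passed adjustment. Tyrobp is also in the macrophage marker list, and Flt3 in the dendritic cell list.

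Across mice the macrophage genes varied together, Csf1 followed some of them, and no relation of Il34 passed the test. Pearson's r was computed over 20 mice after the mean of each of the 4 cells of genotype and batch was taken off, so that mean differences between genotypes or batches did not enter. Mice were permuted within these cells, two-sided, with adjustment over all 45 pairs. Of the 45 pairs 32 passed an adjusted p of 0.05. Among the 8 genes other than the ligands, 27 of 28 pairs passed, with r from 0.465 to 0.962 and a median of 0.793. The exception, a pair named after its values were seen, was Mertk with Itgam (r = 0.465, rho = 0.487, permutation adjusted p = 0.0749).

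**Figure D3:**
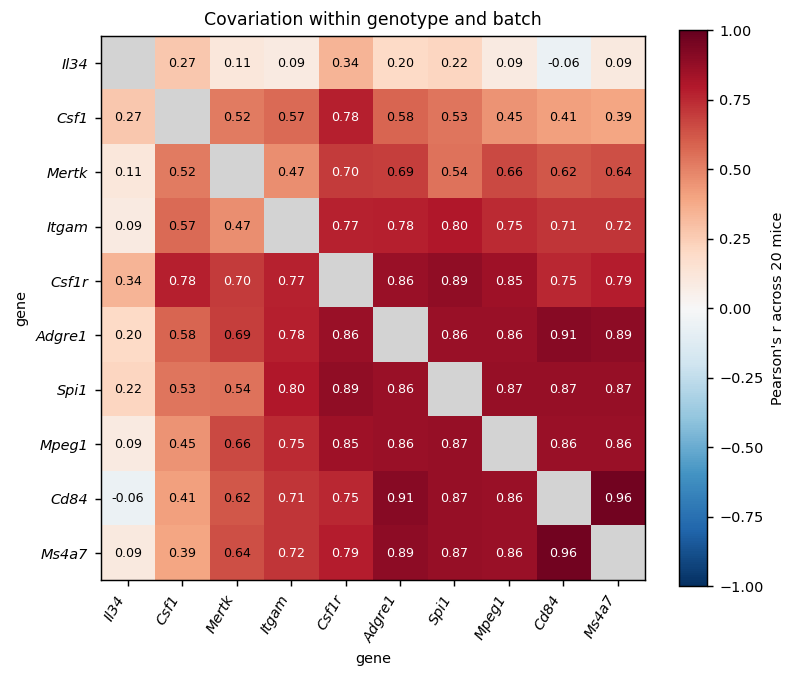
Pearson's r of each pair of genes across 20 mice, after the mean of each cell of genotype and batch was taken off, on a scale from −1 (blue) to 1 (red). The block of Adgre1, Spi1, Mpeg1, Cd84 and Ms4a7 lies between 0.86 and 0.96, and the row of Il34 stays at or below 0.34.

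The pair of highest r was Cd84 with Ms4a7 (r = 0.962, rho = 0.953, permutation adjusted p = 0.000112). Its unadjusted p of 1e-05 is the smallest these permutations can give. Batch 1 alone gave 0.965, batch 2 alone 0.958, and the mice without the 2 farthest from the median of Cd84 gave 0.940. Cd84 lies on chromosome 1 (171839697 to 171890718) and Ms4a7 on chromosome 19 (11321039 to 11336146, both GRCm38). Their promoter windows, from 250 bases before to 50 after a RefSeq start in GRCm38.p6, are shown beside those of Itgam and Csf1. These set the macrophage pair and Itgam beside the ligand gene. Windows were found for 6 of the 10 genes, and not for Csf1r, Spi1, Adgre1 and Il34. Capitals mark GAGGAA or its reverse complement TTCCTC, the core of the PU.1 site, searched on both strands:
Cd84, chr1:171839447-171839746, plus strand: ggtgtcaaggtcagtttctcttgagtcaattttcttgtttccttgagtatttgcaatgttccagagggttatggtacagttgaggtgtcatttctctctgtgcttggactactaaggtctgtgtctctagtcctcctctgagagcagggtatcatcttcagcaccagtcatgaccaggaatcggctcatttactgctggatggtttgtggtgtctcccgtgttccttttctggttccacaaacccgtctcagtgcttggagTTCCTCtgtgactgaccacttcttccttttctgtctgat
Ms4a7, chr19:11336097-11336396, minus strand: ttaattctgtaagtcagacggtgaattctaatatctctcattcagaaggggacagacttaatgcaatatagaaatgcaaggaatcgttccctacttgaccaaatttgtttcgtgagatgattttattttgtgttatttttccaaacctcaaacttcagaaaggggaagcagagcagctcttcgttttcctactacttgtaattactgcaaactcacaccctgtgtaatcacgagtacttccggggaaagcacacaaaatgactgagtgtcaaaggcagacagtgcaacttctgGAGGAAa
Itgam, chr7:128062390-128062689, plus strand: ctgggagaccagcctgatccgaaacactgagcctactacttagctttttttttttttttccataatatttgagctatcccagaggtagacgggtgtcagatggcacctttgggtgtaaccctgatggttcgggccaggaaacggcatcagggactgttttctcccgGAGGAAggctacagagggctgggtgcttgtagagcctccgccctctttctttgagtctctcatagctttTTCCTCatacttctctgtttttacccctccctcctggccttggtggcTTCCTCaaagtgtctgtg
Csf1, chr3:107760420-107760719, minus strand: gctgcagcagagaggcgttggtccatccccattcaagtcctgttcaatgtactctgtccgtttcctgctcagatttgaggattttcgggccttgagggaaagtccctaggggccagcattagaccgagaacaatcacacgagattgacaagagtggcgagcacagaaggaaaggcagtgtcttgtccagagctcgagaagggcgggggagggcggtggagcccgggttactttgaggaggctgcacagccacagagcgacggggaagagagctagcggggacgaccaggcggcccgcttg
The Itgam window held 3 matches, starting at positions −84, −15 and 32 from the start base. Cd84 held 1, at position 11, and Ms4a7 held 1, at position 43, while a second Ms4a7 window held 0. The windows of Csf1, Mertk and Mpeg1 held 0. Those of Mertk and Mpeg1 and the second Ms4a7 window are not shown, so that every macrophage window shown is one with a match. These 6 letters occur in 28.3% of 32851 RefSeq promoter windows of the same length, and in 3 of these 7 windows. A match is a run of letters and not a measured site.

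Csf1r passed with each of the other 7 macrophage genes. With Spi1 r was 0.889 (rho = 0.914, permutation adjusted p = 0.000491), with 0.964 in batch 1 and 0.540 in batch 2, where it did not pass by itself (permutation p = 0.152). With Adgre1 r was 0.863 (rho = 0.899, permutation adjusted p = 0.000525), with 0.888 in batch 1 and 0.780 in batch 2. In both relations cre replicates 9 and 7 were farthest from the median of Csf1r, and without them r was 0.743 with Spi1 (permutation p = 0.00269) and 0.767 with Adgre1 (permutation p = 0.00297). The relation of Csf1r with Cd84, singled out after its values were seen, had an r of 0.754 with all 20 mice and of 0.511 without these 2 (permutation p = 0.0818), with 0.932 in batch 1 and 0.252 in batch 2. Itgam with Adgre1 gave 0.779 (rho = 0.744, permutation adjusted p = 0.00372). It was 0.891 in batch 1 and 0.486 in batch 2, where it did not pass by itself (permutation p = 0.174), and 0.676 without the 2 mice farthest in Adgre1.

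Of its 9 correlations with the other genes, Csf1 had the highest with its receptor. Csf1 with Csf1r gave r = 0.779 (rho = 0.759, permutation adjusted p = 0.000491), with 0.747 in batch 1, 0.926 in batch 2, 0.878 within cre and 0.826 within wt. Without cre replicates 9 and 7 it was 0.813 (permutation p = 0.00143). With the 7 other macrophage genes Csf1 had r from 0.392 with Ms4a7 to 0.579 with Adgre1. Of the 8 pairs of Csf1 with macrophage genes 5 passed adjustment, those with Csf1r, Adgre1, Itgam, Spi1 and Mertk, the last just under the limit (permutation adjusted p = 0.0500). Without the 2 mice farthest from the median of 1 gene of the pair, 3 of the 8 had a permutation p under 0.05. These were the pairs with Csf1r, Itgam and Spi1. The mice left out were not the same in all 8 pairs. They were cre replicates 9 and 7 for Csf1r, wt replicate 5 and cre replicate 3 for Adgre1, and wt replicates 6 and 5 for the rest. Csf1 with Adgre1, also singled out after the values were seen, was 0.911 within cre and 0.403 within wt, and the difference between genotypes was not tested. With the mean of the 10 macrophage markers outside these genes as a covariate, chosen with the data in view, 2 of 45 pairs passed: Csf1 with Csf1r (r = 0.772, permutation adjusted p = 0.00832) and Cd84 with Ms4a7 (r = 0.694, permutation adjusted p = 0.00832). Spi1 with Csf1r was then 0.455 (permutation adjusted p = 0.458) and Adgre1 with Csf1r 0.296 (0.589). These 10 markers include Lyz2, and with the 9 others as the covariate the same 2 pairs passed, with r of 0.755 and 0.714.

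No pair of Il34 passed, with its receptor, with the other ligand or with the macrophage genes. Il34 with Csf1r gave r = 0.336 (rho = 0.358, permutation adjusted p = 0.256), with 0.261 in batch 1 and 0.527 in batch 2, and 0.427 without cre replicates 9 and 7. It was 0.213 without cre replicate 3, 0.171 without the 5 mice with a high list of another tissue, and 0.525 with the macrophage marker mean taken off (permutation p = 0.0224, adjusted p = 0.335). Csf1 with Il34 gave 0.266 (rho = 0.217, permutation adjusted p = 0.333), 0.112 and 0.441 in the batches, and 0.166 without the 2 mice farthest in Il34. It was 0.060 without wt replicate 6 and 0.106 without the 5 mice. Its lowest r was with Cd84, at −0.058 (rho = 0.003, permutation adjusted p = 0.831), and −0.448 with the marker mean taken off (permutation adjusted p = 0.458). A p over the threshold does not show that such relations are absent in 20 mice. Il34 also had the smallest spread between mice of the 10 genes, and a signal near the middle of the array.

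**Figure D4:**
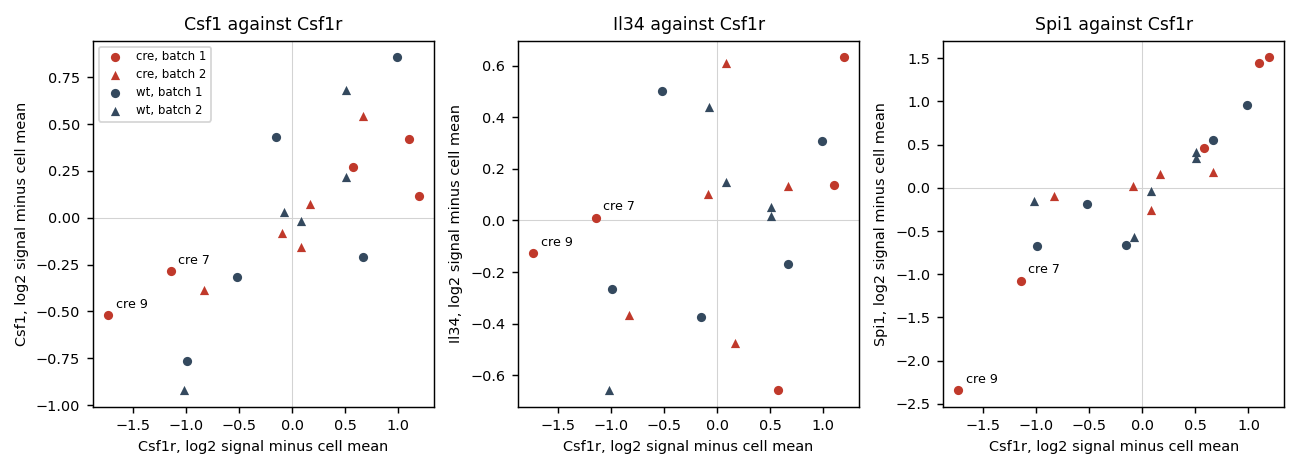
Log2 signal of Csf1, Il34 and Spi1 (vertical axes) against Csf1r (horizontal axes), each minus the mean of its cell of genotype and batch, in 20 mice (red cre, dark blue wt, circles batch 1, triangles batch 2). Csf1 and Spi1 increase with Csf1r (r = 0.779 and 0.889), with cre replicates 9 and 7 at the low end, and Il34 scatters (r = 0.336).

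The correlations were also set against the whole array, as a ranking without a test. An r of at least 0.7 with Csf1r was reached by 8 of the 9 other genes, Il34 being the exception, and by 4.26% of all other probe sets. For Csf1 it was 1 of 9, Csf1r, against 1.77% of probe sets, and for Il34 0 of 9 against 0.104%. Spi1 ranked 98 and Adgre1 177 among 22205 probe sets by r with Csf1r, and Csf1 ranked 516. By r with Csf1, Csf1r ranked 120 among 22205 probe sets. The genes most like Csf1r were Sdc3 (r = 0.962), Axl (0.957), Tubb5 (0.952), Unc93b1 (0.950) and Pik3ap1 (0.950). Sdc3 is a syndecan, Unc93b1 escorts nucleic-acid sensing Toll-like receptors, and Pik3ap1 is an adaptor of phosphoinositide 3-kinase. The genes most like Csf1 were Gli3 (0.889), a transcription factor of Hedgehog signalling, C1s1 (0.888), a complement protease, Antxr1 (0.887), a collagen-binding receptor, Elf4 (0.881) and Nav1 (0.877). Those most like Il34 were Uts2 (0.806), Thap4 (0.795), Prss37 (0.780), Prl3d3 (0.779) and Tcap (0.773). Uts2, Prss37 and Prl3d3 had mean signals of 3.75, 3.61 and 3.90, well below the array medians.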

How the data were processed

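Per the labels' protocols, RNA came from an RNeasy lipid preparation and was labelled with GeneChip WT PLUS reagents. The authors deposited log2 signals of 22206 probe sets for 20 arrays. Transcriptome Analysis Console 4.0.2.15, RMA and mm10 were used, per the submitters' processing notes. Background settings, filters and any batch adjustment are not given in the sources used here. RMA brings arrays to 1 distribution, which hides shifts common to most genes, and background in dim signals shrinks their differences.

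Group, batch and replicate number came from the sample titles. Of the probe sets 19572 had 1 symbol and 2634 were unnamed here. All 19572 were found in RefSeq (GRCm38.p6) through their gene numbers, the source of symbols and coordinates. The highest-mean probe set stood for a gene. Genotypes were compared over all probe sets with limma 3.58.1 in R 4.3.3 (genotype and batch, eBayes without trend, Benjamini-Hochberg). The fit was tested on simulated data (20 sets, 200 changed probe sets in each). It recovered 32.8% of 1.5-fold, 79.5% of 2-fold and 97.3% of 4-fold changes, and 4.52% of its calls were false. The changes were put into probe sets drawn at random, with independent normal errors of each probe set's own SD. These rates are thus averages over the array and do not say how often a change in the 10 genes would be found. In the data themselves Tnf, 3.97-fold higher in wt, passed adjustment, and Lyz2 and Csf2ra, 2.92-fold and 2.13-fold higher in wt, did not. Single genes were tested by enumerating all 63504 regroupings within batches, or 252 within 1 batch. Correlations were permuted 100000 times within cells (Python 3.11.15, NumPy 2.4.6, pandas 2.3.3), where the smallest p is 1e-05. Intervals are 95% intervals of the linear model. The number of mice limits the precision.

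The genes, lists and tests were chosen with earlier results of these data known. All 10 genes were named. Of each pathway list, up to 3 genes with an unadjusted p under 0.05 were named, while marker lists are given as counts, and for Csf1r, Csf1 and Il34 the 5 genes of highest r, leaving out predicted genes and clones. Of the 45 pairs 6 were named by rule, beside the lowest and highest, and others are marked as chosen later. Leaving out mice with high lists of another tissue and taking off the marker mean, with or without Lyz2 in it, were alternatives added after the data were seen. Equal replicate numbers were not taken to pair the mice. The correlation of deviations of same-numbered cre and wt mice was over 0.1 in 4 of 10 pairs and ranged from −0.303 to 0.339. In 4 of 10 pairs the same-numbered wt mouse was the best match among the 5 wt mice of the batch. The labels name no litters, so whether equal numbers mean littermates cannot be told. Other settings were the fit without batch, single batches, the replicate block, a robust prior with trend, dropping the 7402 dimmest probe sets, quantile normalization again, centring on medians, array weights, Adgre1 as covariate, other folds and leaving out each mouse. Averaging several probe sets of a gene was not run, since each of the 10 genes had 1.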

Additional observations from a re-analysis of the deposited data

How the results depend on the processing

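No alternative brought any of the 10 genes past limma's adjusted p of 0.05, with 0 of 10 in each and 0 of 9 where Adgre1 was the covariate, the replicate block, re-normalization and every fit without a single mouse included. With the replicate block the Csf1r difference was −0.17 and the Spi1 difference −0.66, as without it, and the block changed no call of the 10 genes. Directions were less firm. In batch 2 alone the differences turned to 0.12 for Adgre1, 0.11 for Csf1r, 0.095 for Csf1 and 0.13 for Spi1, and 5 genes in place of 9 were negative. In batch 1 alone 1 gene, Spi1, had an unadjusted p under 0.05, as 7.22% of all probe sets did, and entered the study's selection, as 4.26% did. With Adgre1 as covariate the differences turned to 0.059 for Csf1r and 0.028 for Csf1. Leaving out single mice gave −0.30 to 0.054 for Csf1r, positive without cre replicate 9, and −0.18 to 0.050 for Csf1, positive without wt replicates 3, 5 or 10 or cre replicate 9. It gave 0.018 to 0.18 for Il34 and −0.79 to −0.34 for Spi1, with 7 to 9 negative genes. The same fits gave −0.22 to 0.079 for the correlation of Il34 with Cd84, which was 0.103 without the 2 mice farthest from the median of Il34. Between 28 and 35 of the 45 pairs passed when single mice were left out, 27 without the 5 mice with high lists of another tissue, and 2 with the macrophage marker mean taken off, with or without Lyz2 in it, where a permutation of residuals is approximate. That step lowered Spi1 with Csf1r to 0.455, Adgre1 with Csf1r to 0.296 and Itgam with Adgre1 to 0.331. The cause of these changes was not tested.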

Other observations

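Csf1r, Csf1 and Il34 were also set against the mean signal of 13 marker lists of other cell types, 39 relations chosen after the values were seen. Csf1 varied with 7 measured markers of fibroblasts and adipose progenitors (r = 0.773, rho = 0.776, permutation adjusted p = 0.0160 over the 39, n = 20), with batch values of 0.950 and 0.484, and 0.660 when wt replicate 5 and cre replicate 9 were left out. Csf1r did so with the same list (r = 0.790, rho = 0.753, permutation adjusted p = 0.0195), with batch values of 0.866 and 0.533, and 0.675 when the same mice were left out. Spearman's rho passed adjustment for Csf1 (permutation adjusted p = 0.0296) and not for Csf1r (0.0513). No other relation of the 39 passed by Pearson's r.

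Il34 had its strongest relation with 7 markers of pericytes and smooth muscle, a negative one (r = −0.640, rho = −0.567, permutation adjusted p = 0.0789). Within batches it gave −0.622 and −0.676, and it was −0.363 when wt replicate 6 and cre replicate 5 were left out. The adipocyte list gave r = −0.228 with Csf1r, and −0.694 without wt replicates 6 and 5. Wt replicate 6 was the pad with the seminal vesicle list at 16.85. In batch 1 this relation was −0.700 and in batch 2 it was 0.470.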
